A study of Mus musculus with 6 samples.

Results

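The core circadian clock loop is described here through 10 genes in the mouse hippocampus, chosen by their symbols alone: Per1, Per2, Per3, Cry1 and Cry2 of the repressor arm, Arntl, Clock and Npas2 of the activator arm, and Nr1d1 and Nr1d2, which encode the REV-ERB repressors. All 10 symbols were found, 1 row each, among the 16060 rows of the deposited table, and all 10 passed the filter on low values that left 13321 genes for testing. The table holds hippocampal RNA-seq of adult male C57BL/6 mice, with 3 libraries labelled Control (saline injections) and 3 labelled MA (methamphetamine, a psychostimulant), 1 library per mouse. MA was injected intraperitoneally at 5, 10 and 15 mg/kg in weeks 1, 2 and 3, and the mice were killed right after a behavior test on day 22. Testing took place during the light phase, and the time of day at which each mouse was killed is not given in the sources used here. Whole hippocampus was used, so fewer cells of a type and less RNA per cell cannot be told apart. Directions follow the labels of the deposited columns, and no deposited value checks which libraries came from treated mice. The activity-regulated genes described further on are lower in the columns labelled MA. The study's text instead reports Fos, Egr1, Arc and Nr4a1 among them as raised by MA, by RNA-seq and by qPCR. The assignment of the labels is therefore in doubt, and every direction given here would reverse if the labels were exchanged. The limma p-values, from a linear model per gene, compare the group difference with the spread within groups, moderated over all tested genes. They cover these 6 libraries only.

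In the clock loop, the BMAL1 protein encoded by Arntl pairs with CLOCK or with its relative NPAS2 and switches on genes that carry an E-box in their promoters. Among these genes are the Per and Cry genes, whose proteins enter the nucleus and shut off their own activators, so that the repressor transcripts rise and fall over the day, out of step with Arntl. REV-ERB proteins close a second loop by repressing Arntl. In neurons Per1 and Per2 also respond to activity through CREB, and the hippocampus runs its own local cycle of these genes.

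Some of these promoter elements could be read in the 250 bases before the annotated starts (RefSeq, GRCm38.p6), for which 9 of the 10 genes had at least 1 window, 13 windows in all. Per2 was the gene without one. The motifs searched on both strands were the E-box CACGTG, the variant E-box CACGTT, the D-box TTACGTAA or TTATGTAA, the cyclic AMP response element TGACGTCA and its shorter form TGACG, which the full element contains, and AGGTCA, the core of the ROR and REV-ERB element. The E-box was found in the windows of Per1 and Cry1, which is 2 of 13 windows, against 6.02% of the 32851 windows of all genes. The variant E-box was found in those of Cry1, Cry2 and Nr1d1 (3.85% of all windows), the D-box in that of Per3 (0.931%), and the AGGTCA core in those of Per1, Nr1d2 and an inner start of Clock (14.0%). TGACG was found in those of Per1, Cry1 and Cry2 (17.8%). The full cyclic AMP response element was in 0 of the 13 (1.55% of all windows). The stretches that hold the E-box, D-box and ROR element letters of the genes described next are shown 5′ to 3′ on the gene's strand, with the matched letters in capitals. They run from chr11:69098753-69098847 (plus strand) for Per1, chr10:85185079-85185163 (minus) for Cry1, chr2:92434200-92434265 (minus) for Cry2, chr4:151044786-151044900 (minus) for Per3, chr5:76303586-76303651 (minus) for Clock, chr11:98775378-98775435 (minus) for Nr1d1 and chr14:18239148-18239213 (minus) for Nr1d2, and none of these stretches touches an exon annotated in GENCODE M21. The stretches of Per1 and Clock lie between exons inside the genes, before inner starts, and the others lie outside their genes. A match is a match of letters only.
Per1: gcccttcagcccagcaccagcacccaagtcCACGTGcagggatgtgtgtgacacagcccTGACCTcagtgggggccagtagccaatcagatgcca
Cry1: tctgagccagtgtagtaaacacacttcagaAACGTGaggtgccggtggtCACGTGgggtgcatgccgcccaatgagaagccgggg
Cry2: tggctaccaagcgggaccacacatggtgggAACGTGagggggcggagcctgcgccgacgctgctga
Per3: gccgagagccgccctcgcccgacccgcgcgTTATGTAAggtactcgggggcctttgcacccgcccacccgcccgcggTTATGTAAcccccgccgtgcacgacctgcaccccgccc
Clock: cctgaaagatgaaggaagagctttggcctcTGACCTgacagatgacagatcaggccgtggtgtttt
Nr1d1: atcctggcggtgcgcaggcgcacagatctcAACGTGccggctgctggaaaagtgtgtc
Nr1d2: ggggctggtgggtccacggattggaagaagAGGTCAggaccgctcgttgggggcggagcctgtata

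The libraries differed in more than the clock. Averaged over the other libraries of its group, Pearson's r of a library across tested genes lay between 0.991 and 0.993 in Control and between 0.978 and 0.985 in MA, where the lowest belonged to MA replicate 3. Hippocampal neuron markers were present in every library (Slc17a7 at 9.09 or more on the log2 scale), with 0 of 6 called. Of the 6, 4 had a difference below 0, and Neurod6 at -0.43 and Wfs1 at -0.30 were lower in each MA library than in each Control library (unadjusted p = 0.00841 and 0.0270, limma), differences as large as that of Per1. All 10 choroid plexus markers were higher in each MA library than in each Control library, and 6 passed an adjusted p under 0.05 (limma). Their summed level was 1931 to 5314 RPKM against 99.99 to 477.2. Most of each sum was Ttr, at 1744 to 5033 RPKM in MA and 57.67 to 410.3 in Control. In MA replicate 3 Ttr stood at 12.298 on the log2 scale, the maximum shared by all libraries. All 5 blood markers were also higher in each MA library (3319 to 4378 RPKM against 1599 to 2024, 3 called). The 6 thalamus markers summed to 66.81 and 90.57 RPKM in MA replicates 1 and 2, and to 25.62 to 32.46 RPKM in the other 4 libraries, with 0 called. Of the markers of astrocytes, oligodendrocytes, microglia and endothelium, 5 genes each, 0 were called. At an unadjusted p under 0.05 (limma) the endothelial genes Cldn5 (0.30) and Slco1a4 (0.77) were higher and the astrocyte gene Aqp4 (-0.36) was lower, and all 5 endothelial differences were above 0. The part of these differences in the clock results was not tested, except where a value is given beside a gene.

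Levels in the Control libraries spanned from Nr1d1 to Npas2. Values are as deposited and were read as log2(RPKM + 1). RPKM, which is per length of transcript, was obtained by removing an offset of 1 that was inferred from the lowest value of 0. The libraries had been brought to a common scale before deposit, so every RPKM value, sum and ratio given here is of scaled values. The offset makes log2 differences of low genes smaller than their RPKM ratios. Nr1d1 was the most abundant, at 36.7 ± 2.69 RPKM (SD, n = 3), followed by Cry2 at 28.7 ± 0.474. Nr1d2 at 18.3 RPKM and Per1 at 17.4 overlapped between libraries. Per3, Per2, Arntl and Clock lay between 7.35 and 6.06 RPKM, each overlapping with its neighbour in the order, then came Cry1 at 5.35 and Npas2 at 3.93. In the MA libraries the first 4 places were held by the same genes in the same order, Per2 was last at 4.10 ± 0.324 RPKM (SD, n = 3), and Npas2 stood at 6.10 ± 1.67 in seventh place. From Arntl down to Per2, each gene of the MA order overlapped with its neighbour.

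**Figure D1:**
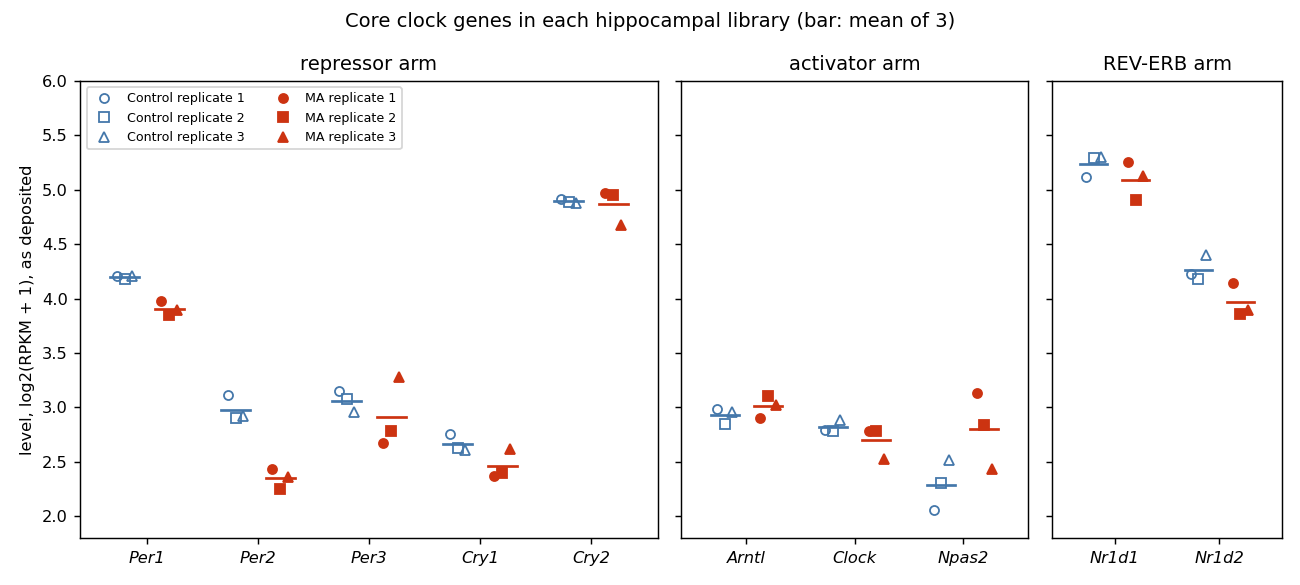
Deposited level, log2(RPKM + 1), of the 10 core clock genes in each of the 6 hippocampal libraries, by arm of the loop. Open symbols are libraries labelled Control, filled symbols libraries labelled MA, and bars are means of 3. The MA libraries of Per1, Per2 and Nr1d2 all lie under the Control libraries, and the other 7 genes overlap.

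The difference between the groups was largest in Per2, at about -0.63 on the log2 scale, and was smaller elsewhere. Per1, Per2 and Nr1d2 were lower in each MA library than in each Control library, 3 of the 10 genes, where 10.2% of all tested genes were. Higher in each MA library were 0 of the 10 (7.32% of all tested genes). At an unadjusted limma p under 0.05 the same 3 genes were lower (5.46% of all tested genes) and Npas2 was higher (4.99%). No core clock gene passed an adjusted p under 0.05, which 0.263% of all tested genes did (limma with Benjamini-Hochberg adjustment over 13321 genes). The difference was below 0 for 8 of the 10 genes, with a median of -0.14, while over all tested genes 52.7% were below 0 and the median was -0.010. With each library left out in turn, Per1 and Per2 stayed at an unadjusted p under 0.05 in all 6 fits. Npas2 did so in the 2 fits without Control replicate 3 or MA replicate 3, and Nr1d2 in the 2 fits without Control replicate 2 or MA replicate 1. In the 6 fits, 3.02% to 11.4% of all tested genes were lower at that limma p, and 3.21% to 11.9% were higher.

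PER1 and PER2 are the repressor proteins whose build-up times the loop. Per2 (ENSMUSG00000055866, chromosome 1 of GRCm38, 91415982 to 91459324) was 3.11, 2.90 and 2.92 in Control replicates 1, 2 and 3, and 2.44, 2.25 and 2.36 in MA replicates 1, 2 and 3. The highest MA library lay under the lowest Control library. In RPKM the means were 6.89 ± 0.651 and 4.10 ± 0.324 (SD, n = 3 each), a ratio of 0.595. The log2 difference was -0.63 (standard error 0.11, 95% interval -0.88 to -0.38), ranked 71 of 13321 genes by p, and the adjusted p of 0.0887 (limma) missed the threshold. Without MA replicate 3 the difference was -0.63 and the limma adjusted p was 0.0466, in a fit that called 1.93% of all tested genes against 0.263% with all libraries. With any other library left out, the limma adjusted p of Per2 was between 0.171 and 0.404.

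Per1 (ENSMUSG00000020893, chromosome 11, 69095217 to 69109960) was 4.21, 4.18 and 4.20 in the Control libraries and 3.97, 3.85 and 3.90 in the MA libraries. The Control libraries were almost level, with an SD of 0.012, and the MA libraries all lay under them. The log2 difference was -0.29 (standard error 0.080, adjusted p = 0.280, limma), and the RPKM ratio was 0.808. Exact permutation tests gave a two-sided p of 0.1 for Per1, Per2 and Nr1d2, the smallest that 3 libraries against 3 allow. Within each library Per2 was set against Per1: Per2 minus Per1 was between -1.28 and -1.10 in Control and between -1.60 and -1.54 in MA on the log2 scale, so the distance between the genes was wider in each MA library.

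Per3, a member of the family that the loop can run without, did not follow its relatives in MA replicate 3. Its values were 3.15, 3.08 and 2.95 in Control, and 2.67, 2.79 and 3.28 in MA, where the last value was the highest of all 6. The log2 difference was -0.15 (95% interval -0.54 to 0.24, limma). It was -0.33 without MA replicate 3, over 1.5 times larger, and -0.027 without MA replicate 1.

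The cryptochromes, partners of PER in repression, differed little. Cry1 was between 2.61 and 2.76 in Control, and 2.37, 2.40 and 2.61 in MA, with a log2 difference of -0.21 (95% interval -0.46 to 0.05, limma). MA replicate 3 alone reached the Control range. Cry2 was 4.92, 4.89 and 4.87 in Control, and 4.97, 4.95 and 4.68 in MA, a difference of -0.026 (95% interval -0.26 to 0.21, limma). MA replicates 1 and 2 lay above every Control library and MA replicate 3 below, and without MA replicate 3 the difference turned to 0.071. Across the 5 repressor genes the mean log2 level was 3.51 to 3.63 in the Control libraries and 3.25 to 3.36 in the MA libraries, and all 5 differences were below 0.

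**Figure D2:**
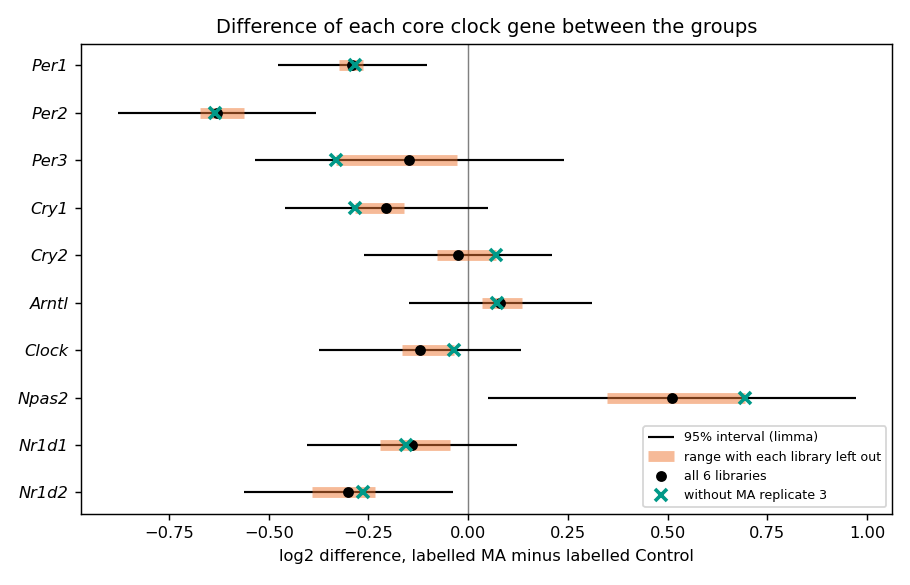
Log2 difference, MA minus Control, of each core clock gene. Points are the fit to all 6 libraries, thin lines its 95% interval (limma), broad bars the range with each library left out, and crosses the value without MA replicate 3. The intervals of Per1, Per2, Nr1d2 and Npas2 leave out 0, and Cry2 crosses 0 without MA replicate 3.

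In the activator arm the transcript of the shared partner, Arntl, differed by less than the spread between libraries. It was 2.98, 2.85 and 2.95 in Control, and 2.90, 3.10 and 3.03 in MA. The log2 difference was 0.080 (95% interval -0.15 to 0.31, limma), and between 0.035 (without MA replicate 2) and 0.13 (without MA replicate 1) with each library left out. Clock, which encodes the partner of BMAL1 in most tissues, was 2.79, 2.78 and 2.89 in Control, and 2.78, 2.79 and 2.53 in MA, with MA replicate 3 the lowest. Its difference was -0.12 (95% interval -0.37 to 0.13, limma), and -0.036 without MA replicate 3.

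Npas2, the relative of Clock that is prominent in the forebrain, had the largest difference upward. It was 2.06, 2.30 and 2.51 in Control, and 3.13, 2.84 and 2.43 in MA. MA replicates 1 and 2 lay above every Control library, and MA replicate 3 lay within the Control range. The log2 difference was 0.51 (standard error 0.20, 95% interval 0.05 to 0.97, unadjusted p = 0.0340, adjusted p = 0.437, limma), with an RPKM ratio of 1.55. It was 0.69 without MA replicate 3, 0.35 without MA replicate 1 and 0.39 without Control replicate 1. The 2 libraries that were high in Npas2 were also the 2 that were high in thalamus markers, whose mean log2 level stood 1.04 and 1.28 above the Control mean in MA replicates 1 and 2, and -0.14 from it in MA replicate 3. The mean log2 level of the 5 endothelial markers was also highest in MA replicates 1 and 2, at 4.77 and 4.57. It was 4.17 in MA replicate 3 and 4.10 to 4.29 in the Control libraries. Without MA replicate 3, 20.8% of all tested genes were higher in each MA library than in each Control library. The part of thalamus or endothelial markers in the Npas2 values was not tested. Npas2 minus Clock was between -0.74 and -0.37 in the Control libraries, and 0.35, 0.054 and -0.092 in the MA libraries, so that Npas2 lay above Clock in MA replicates 1 and 2, just under it in MA replicate 3 and further under it in each Control library.

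The REV-ERB genes are E-box targets that feed back on Arntl. Nr1d2 (ENSMUSG00000021775, chromosome 14, 18204054 to 18239127) was 4.22, 4.18 and 4.40 in Control, and 4.15, 3.86 and 3.89 in MA. The groups were apart by a small margin, between Control replicate 2 and MA replicate 1. The log2 difference was -0.30 (standard error 0.11, adjusted p = 0.420, limma), and the RPKM ratio was 0.803. Nr1d1 was 5.11, 5.29 and 5.30 in Control, and 5.25, 4.90 and 5.13 in MA, with overlapping groups and a difference of -0.14 (95% interval -0.40 to 0.12, limma), which was -0.045 without MA replicate 2 and -0.22 without MA replicate 1. Nr1d1 shares 263 exonic bases, 8.55% of its exonic length in GENCODE M21, with the thyroid hormone receptor gene Thra on the other strand. Thra was far more abundant, at 440.0 RPKM in Control and 500.5 in MA, and its log2 difference was 0.17. Whether counting used strand is not stated, so reads in the shared stretch could belong to either gene. Of the other core clock genes, Cry2 shares 295 exonic bases (4.67%) and Arntl 33 (0.439%) with noncoding genes on the other strand.

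The balance of the arms was then read inside each library, which leaves out any shift common to a whole library. The mean log2 level of the 5 repressor genes minus that of the 3 activator genes was 1.02, 0.89 and 0.73 in Control replicates 1, 2 and 3, and 0.35, 0.34 and 0.70 in MA replicates 1, 2 and 3. Each MA library was lower than each Control library, and for MA replicate 3 the margin was narrow. On the activator side the log2 difference was 0.51 for Npas2, against 0.080 for Arntl and -0.12 for Clock, so that side moved mainly through Npas2. The part of thalamus or endothelial markers in the Npas2 values, and so in this balance, was not tested. The mean of Per1 and Per2 minus Arntl was 0.61 to 0.70 in the Control libraries and -0.048 to 0.30 in the MA libraries, a clearer gap. These within-library values were chosen with the gene values in view and carry no test.

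**Figure D3:**
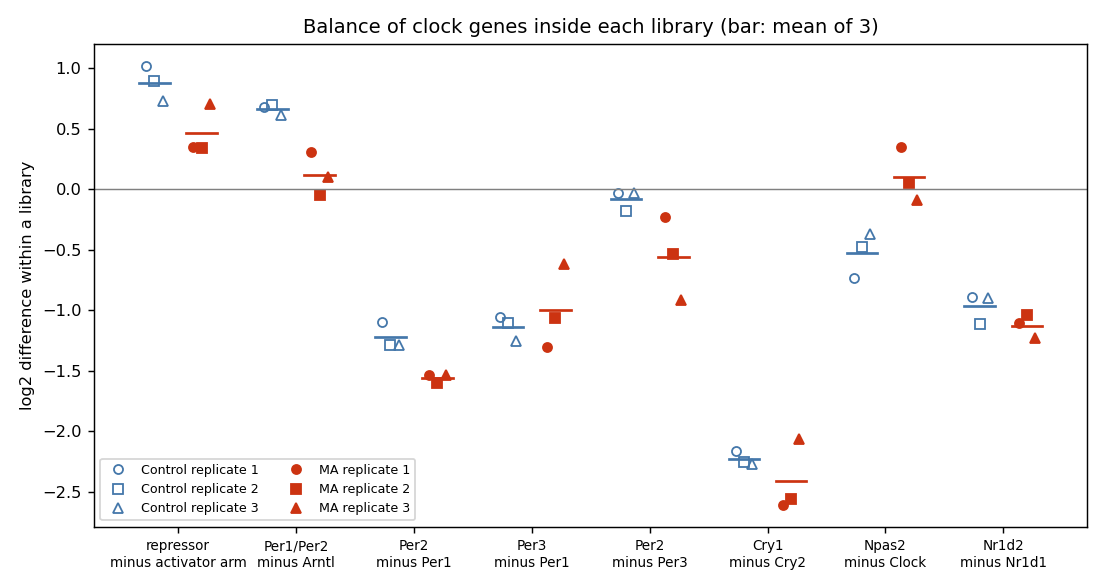
Log2 differences between clock genes, or between arm means, taken inside each library. Open symbols are Control libraries, filled symbols MA libraries, bars means of 3, and the grey line marks equal levels. The MA libraries lie under the Control libraries for repressor minus activator, Per1/Per2 minus Arntl, Per2 minus Per1 and Per2 minus Per3, and above them for Npas2 minus Clock.

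The genes around the loop were taken from 6 lists of 63 genes in all, written from general knowledge of the clock. Of the 62 tested, 40 had a difference below 0, the median was -0.051, and 0 passed an adjusted p under 0.05 (limma). An unadjusted p under 0.05 was reached by 9 lower and 0 higher genes, against 5.46% and 4.99% of all tested genes. Of the 9, 4 were among the 7 output factors, transcription factors that the loop drives. All 7 output factors had a difference below 0, with a median of -0.32, and in 5 the MA libraries lay entirely under the Control libraries, as in 10.2% of all tested genes. Ciart, a repressor of CLOCK and BMAL1, was 3.38 to 3.63 in Control and 2.75 to 3.19 in MA, a log2 difference of -0.54 (adjusted p = 0.252, limma). Bhlhe40, an E-box repressor, was at -0.32, Nfil3, a D-box repressor, at -0.35, and Dbp, a D-box activator, at -0.38. Dbp was lowest in MA replicate 2, at 4.13, against 4.65 and 4.72 in the other MA libraries. Bhlhe41 was at -0.23, and Tef and Hlf, both relatives of Dbp, at -0.12 each.

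The ROR receptors compete with REV-ERB at the Arntl promoter. Rorb was 1.53 to 1.83 in Control and 1.11 to 1.39 in MA, a log2 difference of -0.35 (unadjusted p = 0.0334, adjusted p = 0.435, limma). Rora, like Npas2, was above every Control library (1.56 to 1.88) in MA replicates 1 and 2, at 2.32 and 2.12. In MA replicate 3, at 1.25, it lay under every Control library, where Npas2 lay within the Control range. The log2 difference of Rora was 0.20 (95% interval -0.43 to 0.82, limma).

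Of 12 kinases and phosphatases that act on clock proteins, 1 reached an unadjusted p under 0.05, the phosphatase subunit gene Ppp1cb at -0.17 (limma), a share near that of all genes. Of 10 ubiquitin ligase and deubiquitinase genes, 0 reached it in either direction, and their median difference was 0.0021. Among 14 tested cofactors the deacetylase gene Sirt1 was lower at an unadjusted p of 0.0344, at -0.27 (limma).

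The route from neuronal activity to Per1 and Per2 was covered by 16 genes, with a median difference of 0.043 and 2 lower at an unadjusted p under 0.05. Creb1, which encodes the factor that binds the cyclic AMP response element, was 2.78, 2.69 and 2.99 in Control, and 2.58, 2.29 and 2.26 in MA, a log2 difference of -0.44 (adjusted p = 0.323, limma). Crem, a related factor, was at -0.34 with non-overlapping groups (adjusted p = 0.350, limma).

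Beside these stood the activity-regulated genes, transcripts that neurons make within minutes of firing. All 10 listed genes were lower in each MA library than in each Control library, with a median log2 difference of -1.39, and 6 passed the adjusted threshold (limma). The 6 were the transcription factor genes Fos, Fosb, Junb, Egr1 and Nr4a1, between -1.61 and -1.26, and Arc, which encodes a synaptic protein, at -1.80. The list includes genes the study had picked from these same libraries, so the count is no independent evidence of a direction. The doubt about the column labels applies to this direction first of all, since the study reports Fos, Egr1, Arc and Nr4a1 as raised by MA, by RNA-seq and by qPCR. Relative to the Control mean, the mean of the 10 stood at -1.27, -1.43 and -1.34 in MA replicates 1, 2 and 3, while Per2 stood at -0.54, -0.73 and -0.62 and Per1 at -0.22, -0.35 and -0.30. In all 3 measures MA replicate 2 was the lowest and MA replicate 1 the highest of the MA libraries. The order was not that of every gene in the mean. Of the 6 named genes, Arc and Egr1 had it, while among the MA libraries Fos, Fosb and Nr4a1 were lowest in replicate 3 and Junb was highest there.

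The 5 tested genes outside the loop whose values over the 6 libraries were most like those of Per2, by Pearson's r, were Arc (0.997), Erf (0.996), Egr1 (0.994), Fos (0.994) and Rtn4 (0.993). Arc, Egr1 and Fos are activity-regulated. The 6 points form the 2 groups of the comparison, so r describes mainly the step between them. Within the loop the gene most like Per2 was Per1 (r = 0.980). Per3 and Cry1 were most like each other (0.851), as were Cry2 and Clock (0.807). Nr1d1 was most like Nr1d2 (0.764), Nr1d2 most like Per1 (0.894) and Npas2 most like Cry2 (0.383), while the nearest to Arntl was Npas2, at 0.088.

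**Figure D4:**
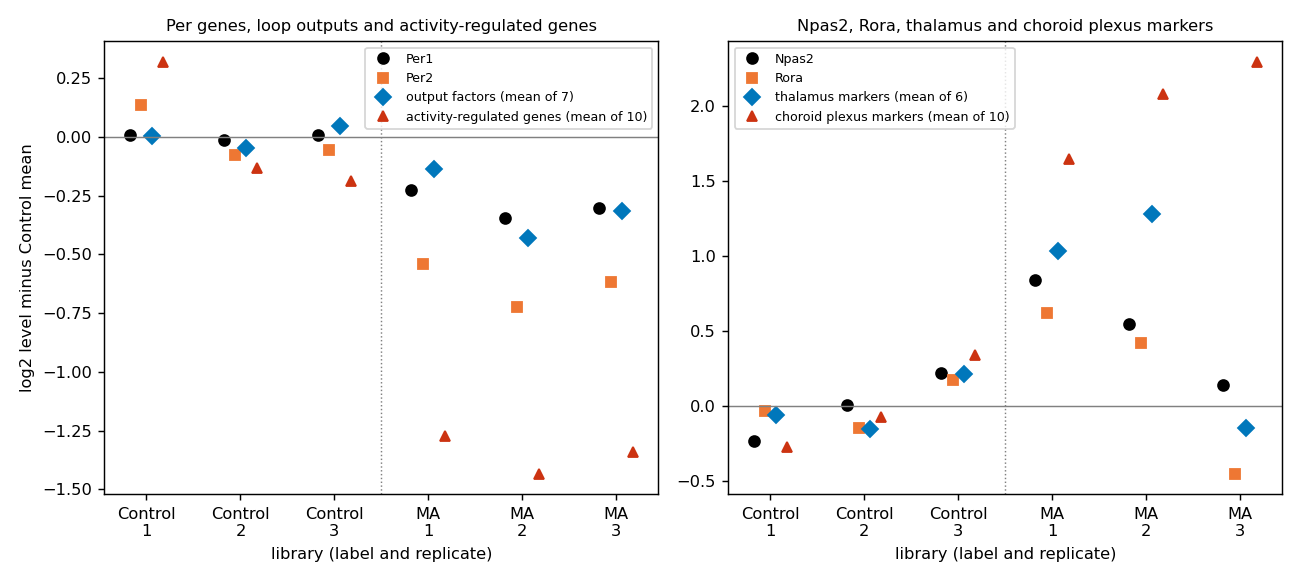
Log2 level of each library minus the Control mean. The left panel shows Per1, Per2, the mean of 7 loop output factors and the mean of 10 activity-regulated genes, all below 0 in the 3 MA libraries, and the right panel shows Npas2, Rora, the mean of 6 thalamus markers and the mean of 10 choroid plexus markers. Npas2, Rora and the thalamus markers are high in MA replicates 1 and 2, and the choroid plexus markers in all 3 MA libraries.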

How the data were processed

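Hippocampal RNA-seq of 3 Control and 3 MA mice was analysed from 1 deposited table. The methods name Hisat2 for alignment and featureCounts for counting per gene, while the submitters' processing notes name Bowtie 0.12.2 and the builds mm8 and mm9. The values the authors deposited are named RPKM but lie on a log2 scale with 1 shared maximum of 12.298 in all libraries, so logarithms had been taken and the libraries brought to a common scale, by steps the sources used here do not describe. Depth is unknown. Genes at 0.5 RPKM or more in at least 3 libraries were tested with limma 3.58.1 in R 4.3.3 (trend on the mean level, no covariate, Benjamini-Hochberg adjustment over 13321 genes), and single genes with a two-sided exact permutation test. The fit was checked on simulated data. The genes and lists were chosen with earlier results of these data known. Named were the 10 loop genes, the ROR and output genes, listed genes at an unadjusted p under 0.05, the genes most like Per2, and, chosen after their values were seen, Thra, Slc17a7, Arntl2, Fkbp5, Sgk1, Tsc22d3 and Zbtb16. Gene coordinates are those of GENCODE M21 (GRCm38), for location only. Alternatives were a minimum mean of 5 RPKM, no filter, pseudocounts of 0.1 and 0.01, median centring, quantile normalization, no trend, sample quality weights, a replicate block and leaving out each library. A listed gene is not reported here.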

Additional observations from a re-analysis of the deposited data

How the results depend on the processing

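Over 15 alternatives, the differences of Per1, Per2, Per3, Nr1d1, Nr1d2 and Clock stayed below 0 and those of Arntl and Npas2 above 0, and that of Cry1 stayed below 0 in the 14 that kept it. Cry2 turned to 0.053 with sample quality weights and ranged from -0.079 to 0.071 (without MA replicate 3) with each library left out. Sample quality weights, which gave MA replicate 3 a weight of 0.194 against 0.937 to 2.45 for the others, called 2 members (Per2, limma adjusted p = 0.0158, and Per1, 0.0444) where 4.40% of all genes were called. They put 6 members (and 13.4% of all genes) lower at an unadjusted p under 0.05 and the repressor arm median at -0.28. Libraries with the same number did not deviate together. Their departures from the group means had r of -0.197, -0.242 and -0.337. Departures from means of 3 libraries also hold every other difference between libraries, so these values cannot settle whether the numbers pair the mice. With the replicate block 0 members were called (0.113% of all genes) and 0 were higher at an unadjusted p under 0.05 (3.53%). The limma adjusted p of Per2 was then 0.319. Leaving out each library, members called ranged from 0 to 1 (Per2, without MA replicate 3), where 0 to 1.93% of all genes were called. At an unadjusted p under 0.05 (limma), 0 to 1 members were higher (3.21% to 11.9% of all genes) and 2 to 4 lower (3.02% to 11.4%). Groups did not overlap for 3 to 5 lower members (13.2% to 22.1% of all genes) and 0 to 2 higher ones (10.4% to 20.8%). Each of these shares was highest without MA replicate 3. The repressor arm median ranged from -0.29 to -0.16. The limma adjusted p of Per2 ranged from 0.0158 to 0.404 over the alternatives. Of all genes, 35 were called in the reported fit, 20 with a minimum mean of 5, 3 without a filter, 586 with the weights, 15 with the block and 0 to 257 with each library left out (257 without MA replicate 3). The causes were not tested. A minimum mean of 5 removed Cry1 and gave no value of the arm balance. Without counts, no interval for counting error can be given.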

Other observations

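Per1 carries glucocorticoid-responsive elements, and 10 glucocorticoid-responsive or receptor genes were listed. The median log2 difference was 0.15 and 4 of the 10 were below 0. An adjusted p under 0.05 (limma) was passed by 2 (0.263% of all tested genes), both higher in each MA library, and the groups of the other 8 overlapped, the widely used targets Fkbp5 (0.27), Sgk1 (0.32), Tsc22d3 (-0.047) and Zbtb16 (-0.070) among them. Sult1a1, a sulfotransferase gene, was 3.30 to 3.53 in Control and 4.23 to 4.49 in MA (log2 difference 0.98, limma adjusted p = 0.0315). Plin4, which encodes a lipid droplet protein, was 0.96 to 1.41 in Control and 2.18 to 2.61 in MA (log2 difference 1.27, limma adjusted p = 0.0403).

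Arntl2, a relative of Arntl, was 3.72 in MA replicate 2 and between 1.58 and 1.84 in the other 5 libraries.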
